A study of Rattus norvegicus with 40 samples.

Results

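Red blood cell transcripts in the rat hippocampus were followed through 5 genes: the beta globins Hbb and Hbb-b1, the heme enzyme gene Alas2, the membrane anion exchanger gene Slc4a1 and the globin chaperone gene Ahsp. Each was represented by the probe set that carried its symbol and no other in the array's probe table, and each had 1 such probe set, so the 5 genes were 5 of 14506 genes with a probe set of their own. The arrays were Affymetrix arrays, and all values are log2 signals, on which a difference of 1 is a doubling.

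Total RNA came from the hippocampi of 40 rats, 1 array each, 4 in each of 10 groups. Lead acetate was given in the chow at 250 or 750 ppm, and controls (0 ppm) ate the same chow without it. In the perinatal groups the dams ate the lead chow from 10 days before they were bred until the pups were weaned, and the pups then ate control chow. In the postnatal groups lead chow was given from birth until postnatal day 45, and control chow after that. Both windows and both doses were run in males and in females, with 1 control group of each sex, and all animals were killed at postnatal day 55, when the hippocampi were dissected at once and frozen. Strain, litters and perfusion of the animals are not given in the sources used here, so p-values measured the spread between these samples only.

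Mature mammalian red cells have no nucleus but keep part of their messenger RNA for a time, most of it for globin. Hemoglobin is a tetramer of alpha and beta globin chains, each of which holds a heme group. Alas2 makes the enzyme that starts heme synthesis in the red cell lineage, Slc4a1 makes band 3, the chloride and bicarbonate exchanger of the red cell membrane, and Ahsp makes a protein that holds free alpha globin until it pairs with beta globin. Blood left in the vessels of dissected brain carries such transcripts, and beta globin and Alas2 transcripts are also known in rodent neurons and glia; which cells gave the signal here was not tested. Lead is known to inhibit the heme pathway enzymes encoded by Alad and Fech. In RNA from whole tissue, fewer red cells and less RNA per red cell cannot be told apart.

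Some facts of the arrays bear on all values here. The 3 control arrays labelled male replicate 4 and female replicates 1 and 3 had Eif2s3 (an X-linked gene) signals of 11.69, 11.28 and 11.30, which lay on the side of the other sex, and 3 arrays of males exposed perinatally (250 ppm replicates 1 and 3, 750 ppm replicate 1) had compressed signals. Each title opens with a number, and these numbers form 3 ranges. Both control groups and the females given 750 ppm perinatally were in range 1, the males given 750 ppm perinatally alone in range 3, and the other 6 groups in range 2. What the numbers stand for is not stated, and exposure and number range cannot be told apart where groups of different ranges are compared. Neurons of the hippocampus were well represented: of 11 measured markers, 10 had mean signals between 9.42 (Fibcd1) and 12.93 (Camk2a), and Tdo2 had 3.68.

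All 5 transcripts had their highest group mean in males given 750 ppm postnatally, and none of the 5 differences from male controls passed the test over all probe sets. Hbb was at 11.90, 11.82, 11.003 and 11.49 on these 4 arrays and at 11.10, 10.98, 11.24 and 10.75 on the male controls. Replicates 1, 2 and 4 lay above every control and replicate 3 lay within the controls' range, so the groups overlapped. The difference in Hbb was 0.53 log2 (SE 0.19, 1.45-fold, n = 4 each), and its limma adjusted p was 0.378. Hbb-b1, the second adult beta globin, was at 11.14, 11.10, 10.34 and 10.96 against 10.16, 10.12, 10.43 and 10.05. Here too replicate 3 was the exception, below the highest control. The difference was 0.70 (SE 0.20, 1.62-fold, limma adjusted p = 0.282).

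**Figure D1:**
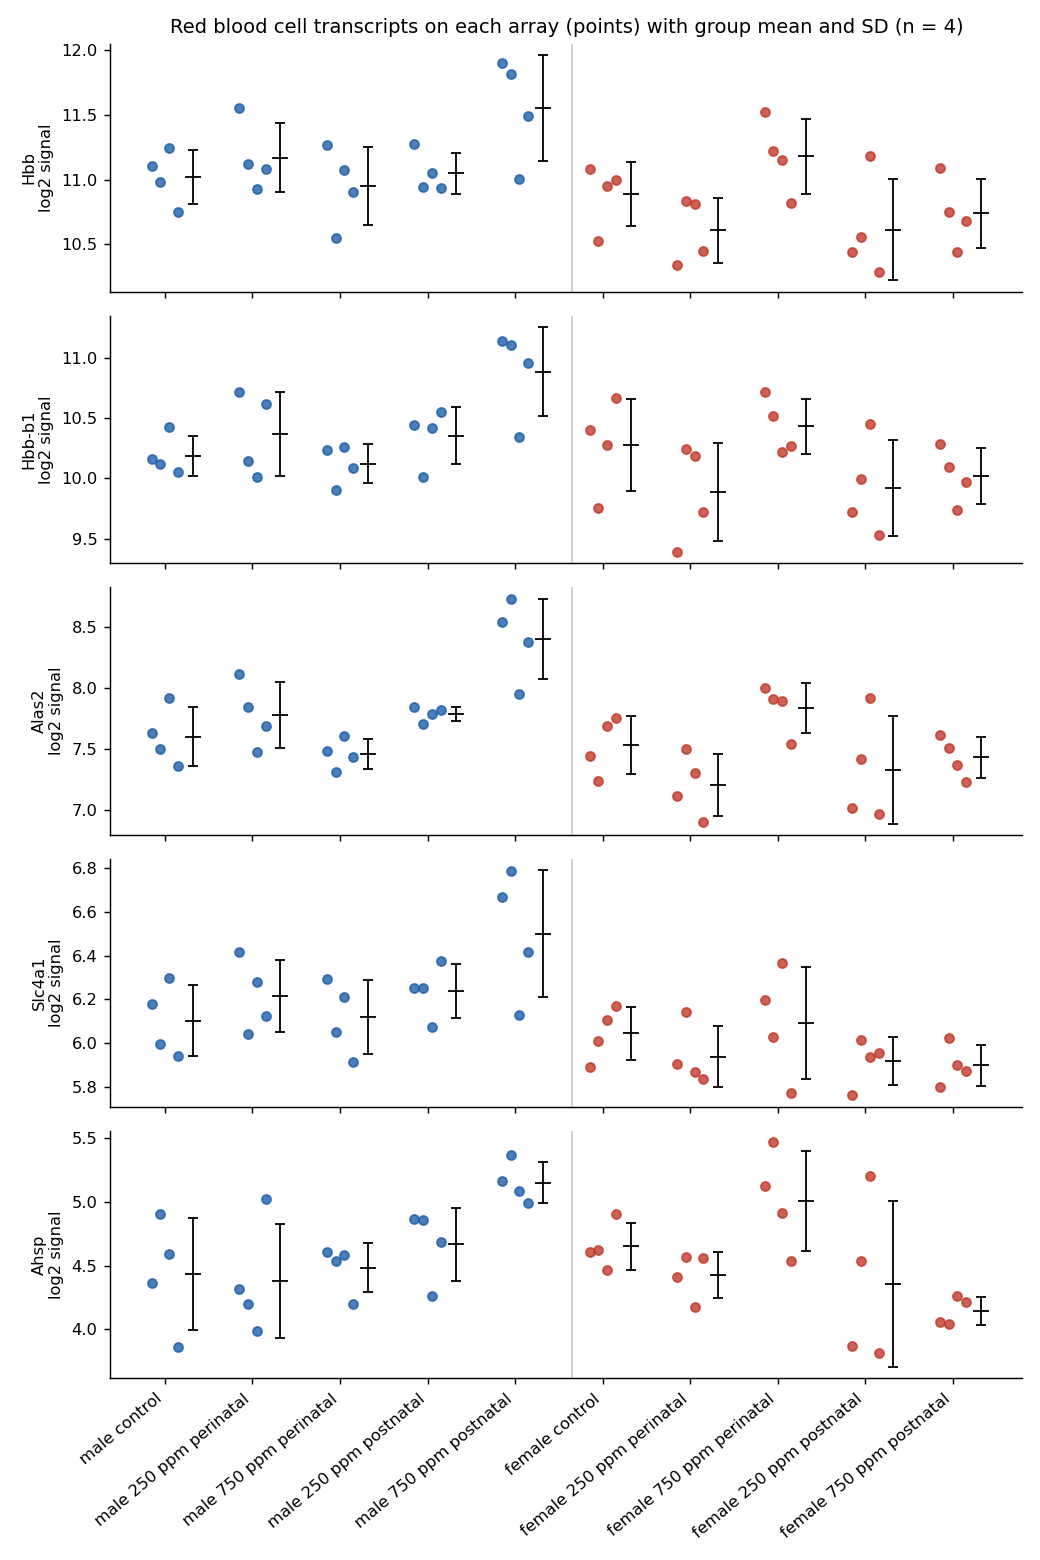
Log2 signal (vertical axes) of Hbb, Hbb-b1, Alas2, Slc4a1 and Ahsp on all 40 arrays, males in blue and females in red, with each group's mean and SD (n = 4) as a black bar to the right of its points. The male 750 ppm postnatal group has the highest mean in all 5 panels, and in each globin panel 1 of its 4 arrays lies among the controls.

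The beta globin genes lie next to each other on chromosome 1. Their transcripts and the probe sequences were not compared, so how far a probe set can be assigned to 1 of them is not known here. The neighbouring gene Hbb-bs has no probe set of its own and shares another one with Hbb-b1. The 250 bases before the start of Hbb, Hbb-b1 and Hbb-bs are shown because the probe sets that carry these symbols varied together on the arrays. They are from RefSeq, build GRCr8, minus strand, at chr1:167663722-167663971, chr1:167643521-167643770 and chr1:167631631-167631880. RefSeq's promoter table held 3 of the 5 genes, Hbb, Hbb-b1 and Alas2. The Alas2 window is not shown because it seemed to lie within the gene, and Hbb-bs is not among the 5. Capitals mark CACACCC, the kind of box that erythroid Krüppel-like factor binds in beta globin promoters, CCAAT and TATAAA, each searched on both strands; on the reverse strand CCAAT reads ATTGG.
Hbb: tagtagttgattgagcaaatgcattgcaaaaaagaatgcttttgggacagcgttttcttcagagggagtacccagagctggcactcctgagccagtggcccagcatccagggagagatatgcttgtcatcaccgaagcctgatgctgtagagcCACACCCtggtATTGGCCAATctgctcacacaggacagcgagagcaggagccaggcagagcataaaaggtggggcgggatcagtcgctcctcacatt
Hbb-b1: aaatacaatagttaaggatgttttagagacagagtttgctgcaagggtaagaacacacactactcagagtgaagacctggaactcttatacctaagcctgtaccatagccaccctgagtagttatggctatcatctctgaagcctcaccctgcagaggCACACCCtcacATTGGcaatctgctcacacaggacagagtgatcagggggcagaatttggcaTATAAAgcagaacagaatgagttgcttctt
Hbb-bs: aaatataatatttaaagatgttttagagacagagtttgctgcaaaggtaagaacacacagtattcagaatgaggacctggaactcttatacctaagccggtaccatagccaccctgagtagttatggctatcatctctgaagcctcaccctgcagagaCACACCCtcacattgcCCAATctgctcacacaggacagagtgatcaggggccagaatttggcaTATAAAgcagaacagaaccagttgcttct

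All 3 windows held CACACCC and CCAAT on at least 1 strand, and Hbb-b1 and Hbb-bs held TATAAA. Counted from the start, with -1 the last base before it, the CACACCC match lay at -97 to -91 in Hbb and at -92 to -86 in Hbb-b1 and Hbb-bs. Among 33469 rat promoters of the same length, CACACCC occurred in 6.12%, CCAAT in 34.0% and TATAAA in 12.9%. Hbb-b1 and Hbb-bs were identical at 235 of 249 aligned bases (94.4%), and Hbb and Hbb-b1 at 163 of 237 (68.8%). These matches are descriptions of the letters and were not tested against the signals.

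Alas2, the heme enzyme gene of the red cell lineage, had the smallest p of the 5. Its signals were 8.54, 8.72, 7.95 and 8.38 in males given 750 ppm postnatally and 7.63, 7.50, 7.92 and 7.36 in male controls. Every exposed array lay above every control, replicate 3 by the smallest margin. The difference was 0.80 (SE 0.17, 1.74-fold), with an unadjusted p of 3.76e-05, rank 16 of 29214 probe sets, and a limma adjusted p of 0.0686. That adjusted p ran from 0.0192 to 0.310 over the alternatives tried and passed in 2 of them, without exposed replicate 3 (0.94, adjusted p = 0.0192) and without control replicate 3 (0.90, adjusted p = 0.0487). Slc4a1, the band 3 gene, was at 6.66, 6.78, 6.13 and 6.42 against 6.18, 5.997, 6.30 and 5.94, again with replicate 3 inside the control range. It differed by 0.40 (SE 0.12, 1.32-fold, limma adjusted p = 0.306). Ahsp, the alpha globin chaperone gene, was at 5.16, 5.37, 5.08 and 4.99 against 4.37, 4.91, 4.59 and 3.86. The groups did not overlap, though the gap between 4.99 and 4.91 was small, and the difference was 0.72 (SE 0.23, 1.65-fold, limma adjusted p = 0.334).

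In this comparison the limma test called 13 of 29214 probe sets (0.0445%), none of them a member. All 5 members had an unadjusted p under 0.05 and were higher, as were 3.99% of all probe sets, and for Alas2 and Ahsp the groups were apart and higher, as were 2.42% of all probe sets. The median difference of the 5 was 0.70, beside -0.01 over all probe sets, of which 95% lay between -0.28 and 0.24. Without the 3 mismatched controls the differences were 0.34 (Slc4a1) to 0.72 (Alas2). Without exposed replicates 1 and 2, the 2 arrays of highest red cell signal, they were 0.17 (Slc4a1) to 0.61 (Ahsp), with Hbb at 0.23, and none passed.

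**Figure D2:**
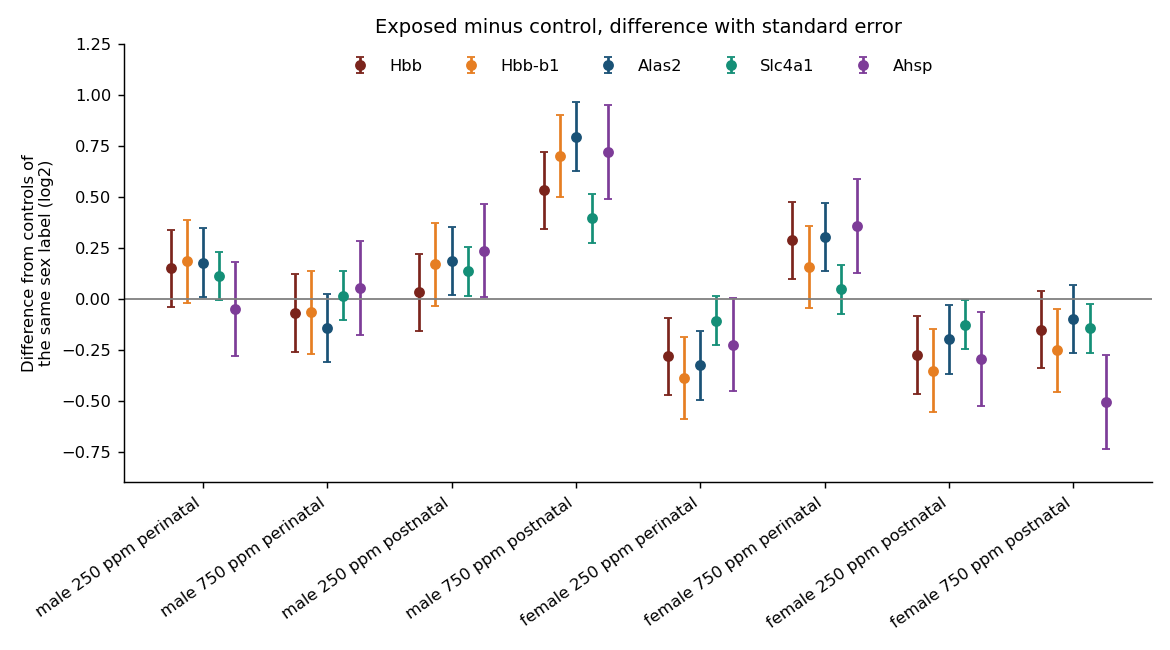
Difference in log2 signal between each exposed group and the controls of the same sex label (vertical axis), with the standard error, for the 5 transcripts in 8 comparisons (n = 4 per group). The male 750 ppm postnatal differences lie between 0.40 and 0.80, and no difference in the plot passed the test over all probe sets.

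The other globins on the array were also compared between these groups. A probe set shared by Hbb-bs and Hbb-b1 differed by 0.49 (SE 0.16) and Hba-a3, of the alpha globin cluster, by 0.40 (SE 0.14). The 2 probe sets shared by the adult alpha globins Hba-a1 and Hba-a2 differed by 0.28 (SE 0.07) and 0.29 (SE 0.07), at group means of 13.34 and 13.39, close to the highest value of 13.93 in the whole table. Their limma adjusted p was 0.217 and 0.172, and it was 0.350 for the shared beta globin probe set and 0.378 for Hba-a3. The embryonic globins Hbe1 and Hbe2 differed by -0.19 (SE 0.11) and -0.10 (SE 0.09) and Hbg1, of the gamma globin type, by 0.05 (SE 0.09). Over the 40 arrays, with group means removed, the adult globin probe sets that are not members correlated with the mean of the 5 members at r = 0.85 to 0.91, and Hbe1, Hbe2 and Hbg1 at 0.07, 0.14 and 0.14. These correlations describe probe sets that share the same arrays and RNA.

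**Figure D3:**
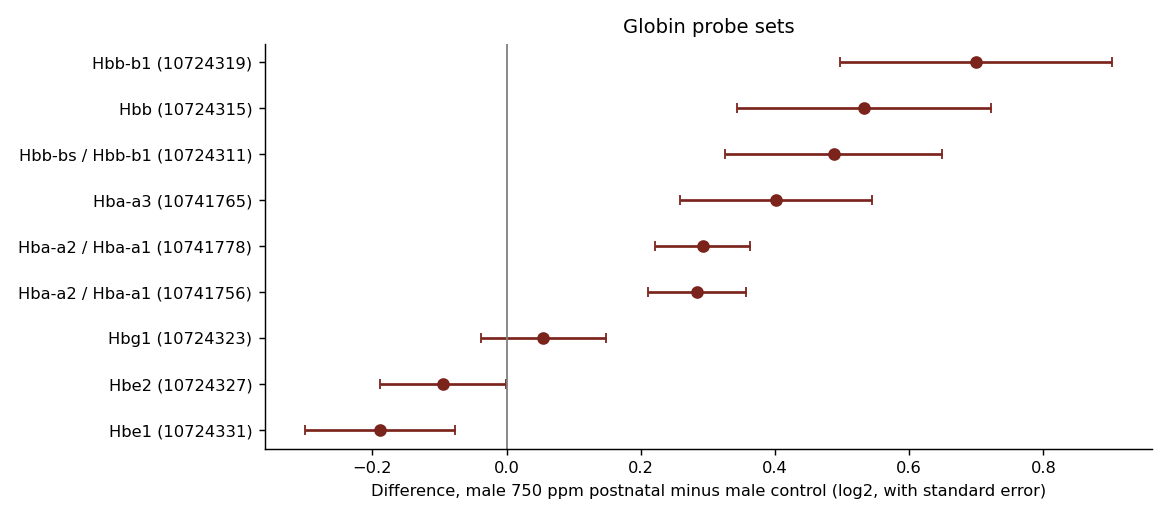
Difference in log2 signal, males given 750 ppm postnatally minus male controls (horizontal axis, with standard error, n = 4 each), for every globin probe set, with its number. Adult globin probe sets lie between 0.28 and 0.70, and Hbe1, Hbe2 and Hbg1 between -0.19 and 0.05.

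In males given 250 ppm postnatally the 5 differences from male controls ran from 0.03 to 0.24, at 250 ppm perinatally from -0.05 to 0.18 and at 750 ppm perinatally from -0.14 to 0.05. None had an unadjusted p under 0.05, which 6.03%, 7.11% and 7.77% of all probe sets had in these 3 comparisons, and the limma test called 0.0342%, 0.0890% and 0.0582%. Alas2 was at 7.84, 7.71, 7.79 and 7.82 in males given 250 ppm postnatally, the narrowest group for this gene, at 8.12, 7.84, 7.47 and 7.69 at 250 ppm perinatally and at 7.48, 7.32, 7.61 and 7.43 at 750 ppm perinatally. Replicate 1 at 250 ppm perinatally stood out at 8.12, with Hbb at 11.55 and Hbb-b1 at 10.72 on the same array, while its Ahsp was 4.32, below its controls' median of 4.48.

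Within males, Alas2 was higher after postnatal than after perinatal exposure to 750 ppm, the only difference of a member that passed in any of the 25 comparisons. The group means were 8.40 ± 0.33 and 7.46 ± 0.12 (SD, n = 4 each), all 4 postnatal arrays lay above all 4 perinatal ones, and the difference was 0.94 (SE 0.17, 1.92-fold, limma adjusted p = 0.00721). The test called 51 probe sets here (0.175%). All 5 members had an unadjusted p under 0.05 and were higher, as were 6.34% of all probe sets, and Hbb-b1, Alas2 and Ahsp had groups that did not overlap, as had 2.69% in that direction. The other 4 members differed by smaller amounts, with Hbb-b1 at 0.77 (SE 0.20, adjusted p = 0.0972), Ahsp at 0.67 (SE 0.23), Hbb at 0.60 (SE 0.19) and Slc4a1 at 0.38 (SE 0.12), and with adjusted p up to 0.149. Alas2 lost the call when only these groups were fitted (adjusted p = 0.0887), without postnatal replicate 2 (0.83, adjusted p = 0.0534) and without postnatal replicates 1 and 2 (0.70, adjusted p = 0.105); over all alternatives its adjusted p ran from 0.00319 to 0.105. The groups lie in ranges 2 and 3 of the title numbers, so window and range cannot be told apart. Genes of vessels, meninges and choroid plexus were mostly higher here too: 10 of 12 endothelial genes were higher (5 with an unadjusted p under 0.05, median 0.15), as were 7 of 8 mural genes (2 at that p, median 0.13), 7 of 8 meningeal fibroblast genes (1 at that p, median 0.39) and 8 of 8 choroid plexus genes (none at that p, median 1.43), with none called. Mean endothelial signal was 8.41 to 8.59 postnatally and 8.17 to 8.47 perinatally, and mean choroid plexus signal 6.58 to 9.99 and 6.28 to 8.79. Platelet, lymphocyte and plasma protein genes were mostly lower (0 of 6, 2 of 8 and 1 of 10 higher). The part of these tissues in the difference in Alas2 was not tested.

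The comparison of doses after postnatal exposure of males lies within 1 range of title numbers. There all 5 members were higher at 750 than at 250 ppm, by 0.61 in Alas2 (SE 0.17), 0.53 in Hbb-b1 (SE 0.20), 0.50 in Hbb (SE 0.19), 0.48 in Ahsp (SE 0.23) and 0.26 in Slc4a1 (SE 0.12). For Alas2 and Ahsp the groups did not overlap, as in 1.19% of all probe sets in that direction. All 5 had an unadjusted p under 0.05, beside 1.55% of probe sets that were higher, and none passed over all probe sets (limma adjusted p = 0.900 for Alas2, and higher for the others), where 0.0103% were called. The exposed group with the high values enters all 3 of these comparisons, so they are not separate observations.

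In females the 750 ppm perinatal group had the highest mean in all 5 members, and no difference from female controls passed. Alas2 was at 7.9997, 7.91, 7.89 and 7.54 in it, and Ahsp at 5.12, 5.47, 4.91 and 4.53, against 7.44, 7.24, 7.69 and 7.76 and against 4.61, 4.63, 4.47 and 4.91 in female controls. Replicate 4 had the lowest signal of the exposed group in both genes, and the groups overlapped in both. The 5 differences ran from 0.05 (Slc4a1) to 0.36 (Ahsp), with no unadjusted p under 0.05, which 5.81% of probe sets had, and the test called 0.157%. Both groups lie in the same range of title numbers. Without female control replicate 2 Hbb-b1 differed by -0.02, and without exposed replicate 3 Slc4a1 differed by -0.05, so the direction of these 2 rests on single arrays.

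Plasma protein genes were also higher in that group. Alb, the serum albumin gene, was at 6.92, 6.66, 7.82 and 7.09 and rose by 1.04 against female controls (SE 0.14, limma adjusted p = 9.27e-05), and Apoc3, an apolipoprotein gene, rose by 0.80 (SE 0.13, adjusted p = 0.00191). In all, 7 of 10 plasma protein genes were higher, 6 of them with an unadjusted p under 0.05 and 2 called (median 0.24). The list mean was 5.60, 5.55, 5.99 and 5.65, above all 4 controls (5.36 to 5.43). Replicate 3, the highest in this list, was not the highest of the group in any member but Slc4a1. Both calls held with each array of the compared groups left out in turn. Of the heme breakdown and transport genes 9 of 10 were higher (3 at an unadjusted p under 0.05, median 0.10), of the meningeal genes 7 of 8 (median 0.24), and of the choroid plexus genes 0 of 8 (median -0.79). The part of plasma or of these tissues in the members' values was not tested.

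The other 3 exposed female groups had lower means than female controls in all 5 members. The differences ran from -0.39 to -0.11 at 250 ppm perinatally, from -0.35 to -0.13 at 250 ppm postnatally and from -0.51 to -0.10 at 750 ppm postnatally. One of these 15 differences had an unadjusted p under 0.05, that of Ahsp at 750 ppm postnatally (-0.51, SE 0.23, limma adjusted p = 0.9999), where 1.13% of probe sets were lower at that p. Its 4 arrays, at 4.05, 4.04, 4.26 and 4.21, all lay below the 4 controls, as did 0.897% of probe sets. At 250 ppm an unadjusted p under 0.05 was found for 5.60% of probe sets perinatally and 3.64% postnatally. The test called 0.0171%, 0.0171% and 0.0137% of probe sets in these 3 comparisons. Females given 250 ppm postnatally had the largest SD of the 10 groups in Alas2 (0.44) and Ahsp (0.65). There replicate 3 had 11.18 for Hbb, 7.92 for Alas2 and 5.21 for Ahsp, and replicate 4 had 10.28, 6.97 and 3.82, the lowest Hbb and Ahsp of all 40 arrays.

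After perinatal exposure, females given 750 ppm lay above females given 250 ppm in all 5 members. Alas2 differed by 0.63 (SE 0.17, limma adjusted p = 0.213) with groups that did not overlap, as in 2.84% of probe sets in that direction, Ahsp by 0.58 (SE 0.23), Hbb by 0.57 (SE 0.19), Hbb-b1 by 0.54 (SE 0.20) and Slc4a1 by 0.15 (SE 0.12). An unadjusted p under 0.05 was found for 4 of the 5, beside 4.22% of probe sets that were higher, and none passed, where 0.0856% of probe sets were called. These groups lie in different ranges of title numbers, so dose and range cannot be told apart. Here 9 of 10 plasma protein genes were higher (median 0.34), and Alb (1.15, SE 0.14), Apoc3 (0.76, SE 0.13) and Apoh (0.45, SE 0.09) were called. Without exposed replicate 3 only Alb was, and Apoh lost its call in 5 of the 8 fits that left out 1 array. Between windows at 750 ppm, females given lead postnatally lay below those given it perinatally in all 5, with Ahsp at -0.87 (SE 0.23, adjusted p = 0.270), Hbb at -0.44 (SE 0.19) and Alas2 at -0.40 (SE 0.17). These 3 had an unadjusted p under 0.05, as had 2.82% of probe sets that were lower, and in Ahsp the groups did not overlap, as in 2.05% of probe sets in that direction. The test called 0.0548%. Alb (-1.07, SE 0.14), Apoc3 (-0.75, SE 0.13) and Apoh (-0.48, SE 0.09) were called lower too, and 8 of 10 plasma protein genes were lower (median -0.25). Apoh lost its call in 4 of the 8 fits that left out 1 array, among them that without perinatal replicate 3, and Apoc3 in that without perinatal replicate 4. In males the same 5 differences between windows had the opposite sign.

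The remaining comparisons of dose and window held no member with an unadjusted p under 0.05. Signs here turned with single arrays in several members. Between doses the 5 differences ran from -0.32 to 0.10 in males exposed perinatally and from -0.21 to 0.12 in females exposed postnatally, where 0.0411% and 0% of probe sets were called. Between windows at 250 ppm they ran from -0.12 to 0.29 in males and from -0.07 to 0.13 in females, where 0.00342% and 0.0103% were called.

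At 750 ppm postnatally males and females were furthest apart, a comparison added after the values were seen, of 2 groups in the same range of title numbers. Alas2 was at 7.62, 7.51, 7.37 and 7.23 in these females, all below the lowest male value of 7.95. Females minus males gave -0.97 in Alas2 (SE 0.17, limma adjusted p = 0.0524), -1.01 in Ahsp (SE 0.23), -0.87 in Hbb-b1 (SE 0.20), -0.81 in Hbb (SE 0.19) and -0.60 in Slc4a1 (SE 0.12). Alas2 had the smallest p of all 29214 probe sets, Slc4a1 ranked 3, Ahsp 8, Hbb 10 and Hbb-b1 12, and in 4 of the 5, all but Hbb, the sexes did not overlap, as in 0.839% of probe sets in that direction. The limma test called 0 probe sets (0%), beside 1075 with an unadjusted p under 0.05 (3.68%). All 5 members were lower at that p, as were 1.13% of probe sets. These ranks and calls rest on 1 spread fitted over all 10 groups. That spread takes in the 3 control arrays with mismatched sex-linked signal, and their effect on it was not tested. No fit of this comparison left out those 3 arrays alone. A fit of only the 2 groups leaves them out together with all other groups. In it the limma adjusted p was 0.161 in Alas2, 0.592 in Slc4a1 and 0.0103 in Ahsp. In females against males given 250 ppm, 4 members were lower with an unadjusted p under 0.05 after perinatal exposure (all but Ahsp, and 5.42% of probe sets) and 4 after postnatal exposure (again all but Ahsp, and 0.972%). The groups did not overlap in Hbb perinatally (1.87% of probe sets in that direction) and in Slc4a1 postnatally (0.637%). After 750 ppm perinatally, Alas2 (0.38, SE 0.17) and Ahsp (0.53, SE 0.23) were instead higher in females at that p, as were 9.13% of probe sets. There 7 of 10 plasma protein genes were higher, and Alb (1.10, SE 0.14), Apoc3 (0.60, SE 0.13) and Apoh (0.41, SE 0.09) were called. These females and males lie in ranges 1 and 3 of the title numbers, so sex and range cannot be told apart. No member passed in these 3 comparisons, where 0.103%, 0% and 0.705% of probe sets were called. Between controls of the 2 sex labels the 5 differences ran from -0.13 to 0.22, and 0% of probe sets were called. Both control groups include arrays with mismatched sex-linked signal, 3 in all, so this comparison mixes the sexes if those labels are wrong.

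The test of whether the response to 750 ppm postnatally differed between the sexes gave no call either. The female minus control difference minus the male one was -0.89 in Alas2 (SE 0.24), -0.95 in Hbb-b1 (SE 0.29), -1.23 in Ahsp (SE 0.33), -0.68 in Hbb (SE 0.27) and -0.54 in Slc4a1 (SE 0.17). All 5 were lower with an unadjusted p under 0.05, as were 1.28% of probe sets, with a limma adjusted p of 0.996 for each, and 0 probe sets passed (0%), with 1241 at an unadjusted p under 0.05 (4.25%). At 250 ppm in both windows all 5 such differences were negative (-0.57 to -0.18 perinatally, -0.53 to -0.26 postnatally), and at 750 ppm perinatally all 5 were positive (0.03 to 0.45), though Ahsp at 250 ppm perinatally was 0.01 without male control replicate 4 and Slc4a1 at 750 ppm perinatally -0.06 without female replicate 3, with an unadjusted p under 0.05 for 1 of these 15, Alas2 at 250 ppm perinatally. There 1.76% of probe sets were lower at that p, and at 250 ppm postnatally and 750 ppm perinatally 2.30% and 7.41% had such a p in either direction. None of the members passed in these 3 tests, where 0%, 0% and 0.0205% of probe sets were called. The control groups enter all 4 of these tests, and 3 of the 8 control arrays are those with mismatched sex-linked signal.

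Ordered by mean, the groups formed a continuum below males given 750 ppm postnatally. Of 45 gaps between neighbouring group means, 9 for each gene, 2 were larger than the larger SD of the pair, and both separated males given 750 ppm postnatally from females given 750 ppm perinatally, in Hbb-b1 (0.46) and in Alas2 (0.56). For every other pair of neighbours the means did not differ beyond their spread. Of the 20 member values of males given 750 ppm postnatally, 17 were among the 10 highest of the 40 arrays for their gene, and of the 20 of females given 750 ppm perinatally 11 were. Among the 10 lowest were 13 of the 20 from females given 750 ppm postnatally, and 11 of 20 in each of the 2 female groups given 250 ppm. The members varied together and share the arrays of a group, so the 20 values of a group are not separate observations.

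The 5 transcripts also varied together between animals of the same group. With group means removed, Hbb correlated with Hbb-b1 at r = 0.86 (Spearman's rho 0.84) and with Alas2 at r = 0.86 (rho 0.85), and Hbb-b1 with Alas2 at r = 0.81 (rho 0.79; n = 40 arrays). Each of these 6 coefficients had a permutation p of 1e-05, the smallest that 100000 permutations within groups can give, and an adjusted p of 3.33e-05 over the 10 pairs. Alas2 correlated with Slc4a1 at r = 0.61 (rho 0.62, permutation p = 0.00023 and 0.00021) and with Ahsp at r = 0.50 (rho 0.37, permutation p = 0.0185 and 0.0534). Slc4a1 and Ahsp were the least alike (r = 0.29, rho 0.36, permutation p = 0.0932 and 0.0432). In all, 9 of the 10 pairs passed after adjustment with Pearson's r and 7 with Spearman's rho. Leaving out the 2 arrays farthest from the median, male 750 ppm postnatal replicate 3 among them in every pair, gave r from 0.22 to 0.82. Within range 1 of the title numbers (12 arrays) r ran from 0.30 to 0.84 and within range 2 (24 arrays) from 0.21 to 0.89, with 4 pairs passing in each; range 3 held 4 arrays, too few. These are correlations between genes of the same RNA samples.

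**Figure D4:**
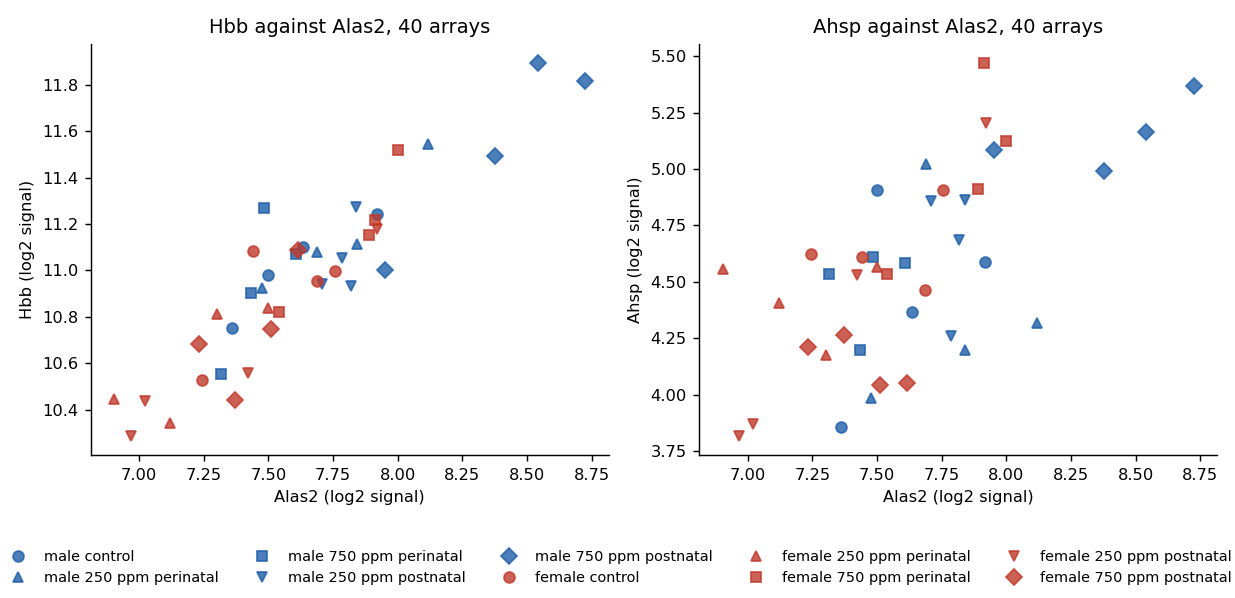
Log2 signal of Hbb (left) and Ahsp (right) against that of Alas2 (horizontal axes) on 40 arrays, with colour for sex label and symbol for exposure. Hbb follows Alas2 closely (r = 0.86 with group means removed) and Ahsp less closely (r = 0.50), and 3 of the 4 males given 750 ppm postnatally lie beyond all other arrays in Alas2.

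Among 14501 other genes, the 10 whose pattern over the 40 arrays was most like the mean of the members, with group means removed, began with Hba-a3 (r = 0.85) and Lgals5, which encodes a galectin of rat red cells (r = 0.74). They went on with Fgl2 (0.72), which makes a fibrinogen-like protein, Gbp2 (0.71), an interferon-induced GTPase gene, the transcription factor gene Osr1 (0.71) and the actin-binding filamin gene Flna (0.70). The last 4 were Sned1 (0.69), Pcolce, a gene of collagen maturation (0.69), Aox3 (0.68) and the protease gene Adamts12 (0.68). Over all genes the median r was -0.04, and 95% lay between -0.41 and 0.44. On the values as deposited, 2 of the 10 remained, Hba-a3 (0.89) and Lgals5 (0.80). Between males given 750 ppm postnatally and controls Lgals5 differed by 0.32 (SE 0.16, limma adjusted p = 0.537), and the 8 genes from Fgl2 on by -0.12 to 0.14.

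Few of the other red cell genes with a probe set of their own correlated with the 5 members beyond the range that holds 95% of all genes. Of 42 such genes in a list of globins, membrane skeleton, blood group, iron uptake and transcription factor genes, 26 were measured, and 3 of them lay outside that range: Hba-a3 and Hemgn, a nuclear protein gene of the red cell lineage (0.44), above it, and Add2, a membrane skeleton gene, below it (-0.42). The median r was 0.14. Hba-a1, Hba-a2 and Hbb-bs are in the list but count as not measured, because their probe sets carry several symbols. Those shared adult globin probe sets had r of 0.88, 0.86 and 0.91. In males given 750 ppm postnatally against controls, 15 of the 26 measured genes were higher and 11 lower, with a median of 0.01 beside 0.00 over all genes, and 0 were called. By p, Hba-a3 was followed by Tal1, a transcription factor gene of blood formation (-0.20, SE 0.08), and Car1, a red cell carbonic anhydrase gene (0.23, SE 0.11). The list mean lay at 6.98 to 7.08 in the exposed group and 7.01 to 7.07 in controls. Brain cells also express several of these genes, among them Add2, Dmtn, Ank1 and Sptb.

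Markers of other blood cells and of plasma proteins were lower more often than higher in males given 750 ppm postnatally against controls, and none was called there. Of 6 platelet genes 2 were higher (median -0.04), of 14 granulocyte and monocyte genes 3 (median -0.10), of 8 lymphocyte genes 3 (median -0.06) and of 10 plasma protein genes 2 (median -0.08). The smallest p-values belonged to Gp9, Gp1ba and Gp5 among platelet genes (-0.14, -0.13 and 0.10) and to Cxcr2, Elane and Camp among granulocyte genes (-0.29, -0.20 and -0.20). Among lymphocyte genes they belonged to Cd2, Ms4a1 and Cd8a (-0.18, -0.22 and -0.19), and among plasma protein genes to Alb, Apoa1 and Fgg (0.30, -0.15 and -0.15). Median r with the members was 0.21, 0.15, -0.02 and 0.05 in these lists. In the comparisons between female groups given above, plasma protein genes were called in the same direction as the members' differences. The list means overlapped between the groups, at 5.97 to 6.18 against 6.06 to 6.13 for platelet genes, 5.38 to 5.49 against 5.45 to 5.59 for granulocyte and monocyte genes, 5.32 to 5.49 against 5.40 to 5.60 for lymphocyte genes and 5.31 to 5.45 against 5.36 to 5.48 for plasma proteins.

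Genes of the meninges and the choroid plexus, vascular tissues that border the hippocampus, varied with the red cell transcripts between arrays. All 8 measured meningeal fibroblast genes had an r above 0.44 (0.50 to 0.67, median 0.57), as did 5 of 8 choroid plexus genes (0.36 to 0.51, median 0.46). In males given 750 ppm postnatally the mean of the choroid plexus list was 9.47, 9.89, 6.58 and 9.99, and that of the meningeal list 8.51, 8.68, 7.61 and 8.54. Replicate 3, the array lowest in Hbb, Hbb-b1, Alas2 and Slc4a1 within this group, was lowest in both lists. Male controls had 10.07, 7.02, 10.21 and 7.02 for the choroid plexus list and 7.90, 7.69, 8.79 and 8.20 for the meningeal list, so both lists overlapped between the groups. Against controls 7 of 8 genes were higher in each list, with medians of 0.41 (choroid plexus) and 0.16 (meninges), and 0 were called, with Clic6 at 0.74 (SE 1.20), Sostdc1 at 0.60 and Kl at 0.49 in the first and Aldh1a2 at 0.46 (SE 0.37), Slc6a13 at 0.41 and Dcn at 0.16 in the second. Both lists lay in the members' direction in males given 750 ppm postnatally against perinatally (medians 0.39 and 1.43). Between females and males given 750 ppm postnatally the meningeal list had a median of 0.18, opposite in sign to the 5 members, and the choroid plexus list one of -0.16, in their direction. The part of these tissues in the red cell signal was not tested.

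**Figure D5:**
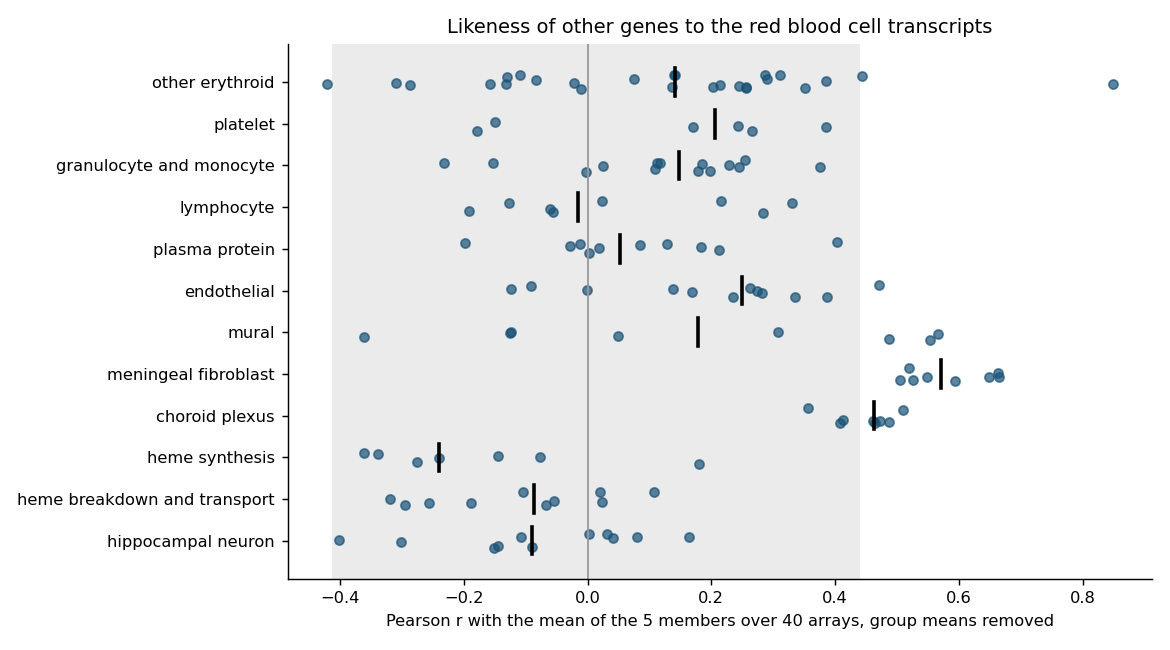
Pearson r of each gene with the mean of the 5 red cell transcripts over 40 arrays after removal of group means (horizontal axis), by gene list, with the list median as a black bar; the grey band holds 95% of 14501 genes. All 8 meningeal fibroblast genes lie above the band, and heme synthesis genes have a median of -0.24.

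Of 12 endothelial genes 6 were higher and 6 lower in males given 750 ppm postnatally (median 0.00, list mean 8.41 to 8.59 against 8.50 to 8.54 in controls), with Pecam1 at 0.25 (SE 0.11), Esam at -0.16 and Cd93 at -0.13. Of 8 mural genes 6 were higher (median 0.04, list mean 8.32 to 8.63 against 8.36 to 8.51), with the smooth muscle gene Tagln at 0.39 (SE 0.21), Kcnj8 at 0.18 and Cspg4 at 0.08. None passed in either list. The median r with the members was 0.25 and 0.18, and 1 endothelial gene and 3 mural genes lay above 0.44.

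The 7 other measured heme synthesis genes had r with the mean of the members from -0.36 to 0.18 (median -0.24), and in males given 750 ppm postnatally 5 of 7 were higher, with a median of 0.12 and 0 called. The list mean was 8.68 to 8.76, above the 8.48 to 8.62 of controls. Other groups overlapped it, at 8.63 to 8.76 in females given 750 ppm postnatally and 8.44 to 8.73 in males given it perinatally. Between males given 750 ppm postnatally and controls, Uros, the uroporphyrinogen synthase gene, differed by 0.61 (SE 0.15, limma adjusted p = 0.217). Cpox, the coproporphyrinogen oxidase gene, differed by 0.18 (SE 0.08) and Alad, whose enzyme lead inhibits, by 0.12 (SE 0.07). Of 10 genes of heme breakdown and transport 9 were higher (median 0.09, list mean 7.44 to 7.55 against 7.39 to 7.43, median r -0.09, 0 called), with the hemoglobin scavenger receptor gene Cd163 at 0.34 (SE 0.14), the transporter gene Abcg2 at 0.27 (SE 0.12) and the heme transporter gene Slc48a1 at 0.08 (SE 0.05). The 11 neuronal markers differed by -0.06 to 0.05, none called, with a median of -0.03 and list means of 10.37 to 10.49 against 10.41 to 10.46; Grin1 was at 0.05, Wfs1 at -0.05 and Calb1 at -0.06, and their median r was -0.09.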

How the data were processed

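The deposited values were log2 signals per probe set, made by the authors with RMA (background correction, quantile normalization between arrays, summary of probes); both RMA and Partek appear, with no version, per the submitters' processing notes. They ran from 2.07 to 13.93, with array medians of 6.96 to 7.06, and were used as deposited. Arrays have no read depth; their number limits the precision. Groups came from the sample titles. Of 29214 probe sets, 15310 carried 1 gene symbol, 323 several and 13581 none; where several stood for 1 gene, that with the highest mean was taken.

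A limma 3.58.1 model (R 4.3.3) with 10 group means and a variance trend was fitted to all 40 arrays and all probe sets, giving 21 comparisons and 4 added after the values were seen (females against males in each exposed group). P-values were two-sided, Benjamini-Hochberg adjusted within each comparison, and called under 0.05. Fold changes are 2 to the power of the log2 difference. The fit was tested on simulated data. Correlations were tested by 100000 permutations within groups (scipy 1.17.1). Likeness to the members used Pearson's r with the mean of the 5 group-centred, SD-scaled members. From each of 12 gene lists (160 genes, 128 measured) up to 3 genes of smallest p in males given 750 ppm postnatally against controls were named; Apoc3, Apoh (and Alb in females), Tdo2, Fibcd1, Camk2a, Hemgn, Add2, Dmtn, Ank1 and Sptb were named after their values were seen. The members, lists and comparisons were chosen with earlier results of these data known. Figures were drawn with matplotlib 3.10.9.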

Additional observations from a re-analysis of the deposited data

How the results depend on the processing

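The 44 member differences with an unadjusted p under 0.05 kept their sign in all 609 alternative values, and of the other 81 differences 30 turned sign in 77 of 1136 values, none of them called; the largest that turned was Ahsp in females given 750 against 250 ppm postnatally (-0.21, and 0.07 without the 250 ppm replicate 3). The alternatives were: without the dimmest 40% of probe sets, further quantile normalization, a fit of the compared groups only, no variance trend, without the 3 mismatched controls, without the 3 compressed arrays, and without single arrays. A further alternative, chosen after seeing the data, left out replicates 1 and 2 of males given 750 ppm postnatally. It gave the highest limma adjusted p, 0.972, of Alas2, Slc4a1 and Ahsp in females against males given 750 ppm postnatally. Leaving out dim probe sets, fitting the compared groups only and dropping the variance trend leave the group means unchanged, so no sign could turn there. Leaving out dim probe sets also removes Slc4a1 and Ahsp, so only Hbb, Hbb-b1 and Alas2 were tested in that alternative. The 44 were picked by p in these same data, so their kept signs are not separate evidence. The number of members called changed in 3 of the 25 comparisons. In males given 750 ppm postnatally against controls it was 0 to 1 with single arrays left out (1 without exposed replicate 3 or control replicate 3), against 0. For males given 750 ppm postnatally against perinatally it was 1 and became 0 with the compared groups only and without postnatal replicates 1 and 2 (chosen after seeing the data), and 0 to 1 with single arrays left out. For females against males given 750 ppm postnatally it was 0 and became 1 without the dimmest probe sets (Alas2, adjusted p = 0.0343), 2 with further quantile normalization (Alas2 and Slc4a1, adjusted p = 0.0256 each), 1 with the compared groups only (Ahsp, adjusted p = 0.0103) and 0 to 2 with single arrays left out (2 without male replicate 3); over its alternatives the adjusted p ran from 0.00605 to 0.972 in Alas2, from 0.01003 to 0.972 in Slc4a1 and from 0.0103 to 0.972 in Ahsp. Pairs of members that correlated numbered 9 over all arrays and 4 within either range of title numbers, which hold fewer arrays. Of the 10 genes most like the members, 2 were kept on the values as deposited. The causes of these changes, the number of arrays among them, were not tested. Signal over background is not given in these values, so the limit for dim probe sets such as Ahsp is unknown. No paired analysis was possible because the labels give each sample its own number and no number shared between groups.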

Other observations

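Within the groups, none of the 50 sets of 4 values (5 members in 10 groups) held a value farther from the others than Dixon's limit of 0.829 of the range. On the values as deposited, without removal of group means, the genes most like the members after Hba-a3 and Lgals5 were Pard6g (r = 0.66), Hemgn (0.59), Snai2 (0.58), Igf1 and Ifitm1 (0.57 each), Rbm38, Gpx1 and Chrnb3 (0.56 each), over 40 arrays; none of these 8 differed between males given 750 ppm postnatally and controls by a limma adjusted p under 0.05 (0.461 to 0.872).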
